A study of Homo sapiens with 8 samples.

Results

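The genes described here encode subunits of ion channels named for sodium (SCN), calcium (CACN) and potassium (KCN), most of them channels that open with membrane voltage. They were chosen by symbol from the deposited count table: protein-coding genes whose symbol begins with KCN, SCN or CACNA, CACNB or CACNG followed by the family's letters and numbers, with a mean of at least 1 CPM, the count relative to the library's total, over the 8 libraries. Of 58787 gene identifiers 136 protein-coding genes carried such a symbol, and 65 of these passed the level. The choice used the mean over all libraries and no difference between groups. The 65 genes were 45 of 96 potassium channel genes, 13 of 26 calcium channel genes and 7 of 14 sodium channel genes. The symbols reach further than voltage gating. Of the 65 genes 16 belong to inward rectifiers, leak channels and small-conductance calcium-activated channels, which lack voltage gating, and 31 encode the pore-forming alpha subunits of voltage-gated families.

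Voltage-gated channels are pores whose charged segments move when the membrane potential changes. In neurons sodium channels start the action potential, potassium channels end it and set how readily the next one comes, and calcium channels turn it into calcium entry and secretion. Auxiliary subunits do not form the pore but set how much channel reaches the surface and how fast it opens and closes. Inward rectifiers and leak channels hold the resting potential on which all of these act.

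Polyadenylated RNA was sequenced from IMR32, an established human neuroblastoma cell line with amplified MYCN, labelled as wild type and as a neuroblast. One group of 4 libraries came from cells given CR31B at its IC50, the other group of 4 from cells given the vehicle, 0.1% DMSO. The extraction protocol names a 6 h time point. CR31B is a rocaglate, a class of compounds that clamp the RNA helicase eIF4A onto RNA and so hold back translation initiation. The series describes 4 biological replicates, and the labels do not say more of how the cultures were separated. Replicate 1 of both groups was sequenced paired-end and replicates 2 to 4 single-end. All libraries come from 1 cell line at 1 time point.

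Library totals ranged from 43687828 to 64715535 counts, of which the 65 genes took 0.171% to 0.192%. All 11 sympathetic neuroblast marker genes were detected, with 2913 to 3994 CPM in sum over the 8 libraries, although TH, the rate-limiting enzyme of catecholamine synthesis, had only 1.77 to 3.03 CPM. SOX10, PRRX1, CD3E, CD68, KRT5 and KRT14, which mark glia, mesenchyme, leukocytes and epithelium, had 0 counts in all 8 libraries. In the single-end libraries 4 of the 11 neuroblast markers were called higher with CR31B and 4 lower (all tested genes 23.8% and 17.6%). Also called lower were 3 markers of other cells, CDH5 and PTPRC among them. Summed over its list, glia had 3.53 to 6.24 CPM with CR31B and 2.79 to 8.87 with DMSO, mesenchyme 19.5 to 30.9 and 15.9 to 29.6, endothelium 1.39 to 2.13 and 0.755 to 2.66, leukocytes 0.243 to 0.904 and 0.275 to 0.832, and epithelium 0.0371 to 0.109 and 0 to 0.219. The part of these levels in the channel results was not tested. The libraries of replicate 1 stood apart from the rest. Of the genes with a call in the single-end fit 98.9% went the opposite way between the 2 libraries of replicate 1. Each result is therefore given for all 8 libraries as labelled and for the 6 single-end libraries, and directions follow the labels of replicates 2 to 4. Where a value of replicate 1 is given, it belongs to the library that carries that label. Layout and replicate 1 cannot be told apart, since the same 2 libraries hold both.

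Levels between genes were compared per kb of exon, with CPM scaled by TMM factors. The length is that of the merged exons of all transcripts annotated for a gene in GENCODE release 29. It was 23.7 kb for SCN2A and 3.58 kb for KCNB2, so levels per kb and their order depend in part on the annotation. Of the 65 genes the highest was KCNB2, a delayed-rectifier potassium channel, with a mean of 22.4 CPM per kb and a range over libraries of 16.7 to 28.5. SCN3B, a sodium channel beta subunit, followed with 21.0 (16.3 to 28.1), KCNK2, a stretch- and lipid-sensitive leak channel, with 19.8 (19.0 to 21.0), and CACNG4, a transmembrane AMPA receptor regulator named after calcium channel gamma subunits, with 19.2 (17.8 to 20.5). The ranges of these 4 genes overlapped, so their order was not larger than the spread between libraries. High levels were also measured for KCNG1 with 14.8, CACNA2D1 with 14.7, CACNA1H with 11.5, KCNJ8 with 10.3 and CACNA1B with 9.69 CPM per kb. The median of the 65 genes lay at 1.42, and SCN2A, a sodium channel of mature central neurons, had the lowest level with 0.0443 CPM per kb.

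Levels within a family differed widely. Among the sodium channel pores SCN3A had 2.53 CPM per kb (2.14 to 2.86) and SCN8A 2.31 (2.17 to 2.44), with overlapping ranges, and SCN9A had 0.617. Among the high-voltage calcium pores CACNA1B, the N-type channel of nerve terminals, had 9.69 against 0.160 for CACNA1D and 0.0961 for CACNA1C, both L-type, and their ranges did not meet. Among the T-type pores, which open near rest, CACNA1H had 11.5 against 0.180 for CACNA1I. None of the 8 KCNA genes, the Shaker family of potassium channels, reached a mean of 1 CPM, and none of the 6 KCNE genes did. All 4 CACNB genes and 7 of 8 KCNH genes did. Of the 136 genes 71 fell below the level, 15 of them with 0 counts in all libraries. Just outside lay KCNIP1 with 0.683, KCNC2 with 0.725 and KCNIP2 with 0.780 CPM, and just inside SCN2A with 1.05, KCNMB3 with 1.078 and KCNJ9 with 1.25 CPM.

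**Figure D1:**
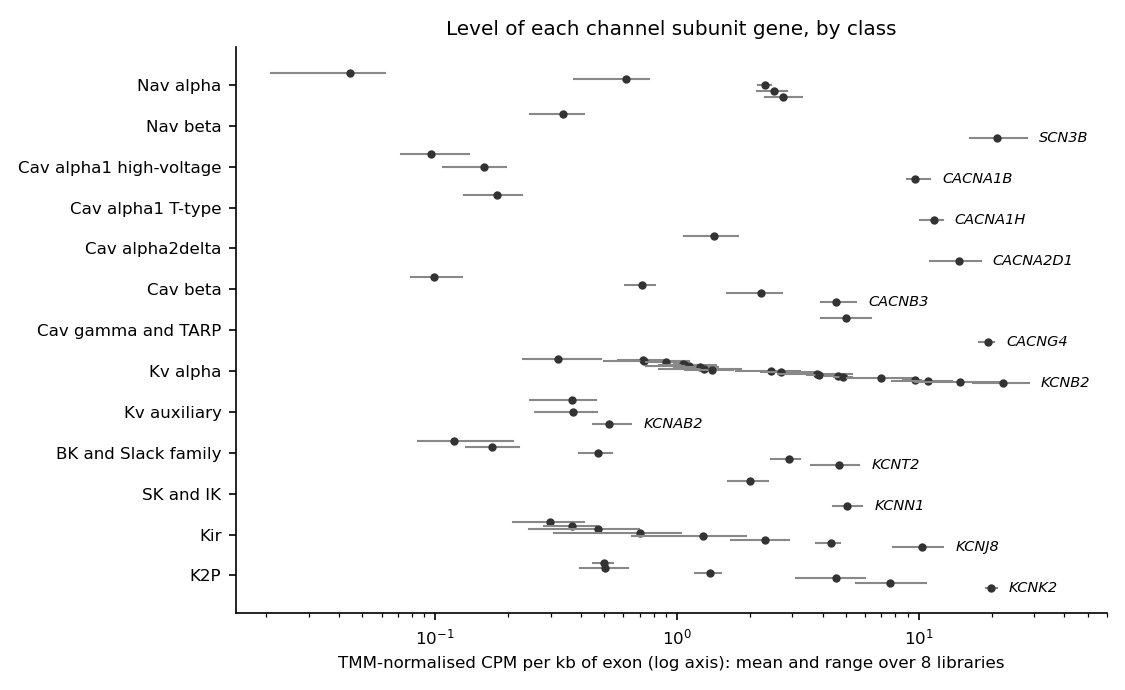
TMM-normalised CPM per kb of exon on a log axis for 65 channel subunit genes, 1 line per gene from its lowest to its highest of 8 libraries with the mean as a point, grouped by class, and the highest gene named in each class other than sodium channel pores (Nav alpha). The plot runs from SCN2A at 0.0443 to KCNB2 at 22.4 CPM per kb.

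Promoter windows of the RefSeq table for GRCh38.p14 were found for 42 of the 65 genes. The 250 bases before the start were searched on both strands, and the share among all 15842 protein-coding windows of that length is given beside each motif. The E-box CACGTG, the sequence MYC family proteins bind, was in 4 of 42 windows (9.52%; all windows 7.84%), those of CACNA1B, CACNA1I, KCND2 and KCNH4. The GC box GGGCGG was in 31 of 42 (73.8%; all windows 56%), the TATA box TATAAA in 3 (7.14%; all windows 9.23%), and the ATF4 element TGATGCAA in 1, that of KCNT2 (2.38%; all windows 0.587%). The cAMP response element TGACGTCA (all windows 2.32%) and the AP-1 site TGACTCA (all windows 3.17%) were in 0. None of these strings contains another. The median GC content of the windows was 69.4% for the 42 genes and 62.4% for all genes. A match describes the letters and not a bound site. Printed below, chosen after their values were seen, are KCND2 and CACNA1I, the 2 E-box genes that were called higher in the single-end libraries, and the K2P leak channel genes KCNK5, called higher, and KCNK3, called lower. Capitals mark CACGTG and GGGCGG or its reverse complement CCGCCC.
KCND2 promoter, GRCh38.p14 chr7:120272925-120273174, plus strand: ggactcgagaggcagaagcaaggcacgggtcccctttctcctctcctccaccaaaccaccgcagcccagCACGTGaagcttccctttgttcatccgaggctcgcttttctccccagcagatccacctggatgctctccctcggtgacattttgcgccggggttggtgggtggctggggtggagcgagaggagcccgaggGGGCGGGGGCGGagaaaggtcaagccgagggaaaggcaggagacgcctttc
CACNA1I promoter, GRCh38.p14 chr22:39570503-39570752, plus strand: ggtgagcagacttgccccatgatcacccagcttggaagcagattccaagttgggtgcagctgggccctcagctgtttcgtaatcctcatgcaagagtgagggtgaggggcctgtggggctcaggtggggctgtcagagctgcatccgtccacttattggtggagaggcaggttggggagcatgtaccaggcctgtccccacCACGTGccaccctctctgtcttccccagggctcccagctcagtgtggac
KCNK5 promoter, GRCh38.p14 chr6:39229476-39229725, minus strand: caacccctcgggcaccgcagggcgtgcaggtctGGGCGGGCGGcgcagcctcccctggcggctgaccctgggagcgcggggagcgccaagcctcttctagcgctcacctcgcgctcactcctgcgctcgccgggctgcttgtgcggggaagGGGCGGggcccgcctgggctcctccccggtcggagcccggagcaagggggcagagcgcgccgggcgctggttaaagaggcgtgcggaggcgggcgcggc
KCNK3 promoter, GRCh38.p14 chr2:26692472-26692689, plus strand, ended before the first exon of GENCODE: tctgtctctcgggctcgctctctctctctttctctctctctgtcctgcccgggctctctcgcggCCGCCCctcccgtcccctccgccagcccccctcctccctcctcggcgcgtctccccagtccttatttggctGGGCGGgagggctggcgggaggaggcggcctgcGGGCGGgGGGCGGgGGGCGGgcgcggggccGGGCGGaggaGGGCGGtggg
These windows hold 1 E-box and 2 GC boxes for KCND2, 1 E-box and 0 GC boxes for CACNA1I, 0 and 3 for KCNK5, and 0 and 7 for KCNK3.

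The series has 1 contrast, CR31B against DMSO, and for these genes it asks which channel transcripts differ after 6 h of the compound. Under the labels as given, 0 of 65 genes were called, at an adjusted p under 0.05 in edgeR's quasi-likelihood test of 16518 genes, with a term for layout and p-values adjusted by Benjamini-Hochberg (background 0%). The adjusted p ranged from 0.707 to 0.986. An unadjusted p under 0.05 was found for 2 genes (background 1.24%), with 0.0183 for CACNA1I, and DESeq2 called 0 as well. The 2 groups did not overlap in CACNA1I and KCNK6, both higher in the 4 CR31B libraries (background 0.297%), and 0 genes were apart in the lower direction (background 0.363%).

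Within the 6 single-end libraries 22 of 65 genes were called by the same test over 16696 genes, 19 higher (background 23.8%) and 3 lower (background 17.6%) in the libraries labelled CR31B. In either direction 33.8% of the 65 genes were called (background 41.3%). Past 2-fold were 2 genes, KCNJ3 and KCNJ4, both higher (background 1.99%), and 0 lower (background 0.683%). The median log2 fold change was 0.13 for the 65 genes and -0.0070 for all genes, and the median absolute value was 0.24 for both. An unadjusted p under 0.05 was found for 30 of the 65 genes (background 49.2%). Without overlap of the 2 groups of 3 were 23 genes higher (background 27.7%) and 10 lower (background 24.4%). Each of the 22 called genes moved the same way in replicates 2, 3 and 4, the libraries that gave the calls, so this adds no support to them. So did 43 of the 65 genes, called or not, and the share over all genes was not counted. The split of the calls depended on scaling, among the 65 genes and over all genes. Against the 19 higher and 3 lower with TMM, upper quartile scaling gave 12 higher (background 18%) and 10 lower (background 27%), and total counts gave 12 (background 19.1%) and 9 (background 25.1%). Loess offsets on GC content and length of a gene's longest transcript gave 12 higher (background 19.3%) and 9 lower (background 19.5%). Replicate number as a block gave 24 (background 28.1%) and 8 (background 23.1%), and offsets with the block 20 (background 24.1%) and 14 (background 26.5%). The filter of 1 CPM in every library gave 19 (background 27.9%) and 7 (background 25.8%). Without both libraries of replicate 4 the calls were 9 (background 15.3%) and 1 (background 8.08%). The median log2 fold change, 0.13 for the 65 genes and -0.0070 for all genes with TMM, was 0.033 and -0.10 with upper quartile scaling. It was 0.0097 and -0.031 with the offsets, and 0.0020 and -0.032 with offsets and block. Because RNA was measured in bulk, a change in the share of cells that express a gene and a change in RNA per cell cannot be told apart.

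Of the 22 calls 14 were kept under all 10 other scalings, filters, tools and models and with each of the 6 libraries left out, 11 higher (KCNJ3, KCNJ4, KCNG3, CACNB1, KCNH3, KCNJ8, KCND2, KCNK5, KCNB2, CACNA2D1 and KCNQ5) and 3 lower (CACNB3 and KCNK3 among them). For the other 8 the largest adjusted p over those fits (edgeR, Benjamini-Hochberg) lay between 0.0669 for CACNA1D and 0.822 for KCNQ3. It was 0.107 for CACNA1I, 0.129 for CACNA2D2, 0.342 for SCN9A and 0.350 for KCNT2. The log2 fold change of KCNQ3 turned from 0.16 to -0.021 with the GC and length offsets. Of the 14 kept calls, those of CACNB3, KCNK3, KCNK5 and KCNQ5 were lost when both libraries of replicate 4 were left out. That of CACNB3 was also lost without both libraries of replicate 2. How many of all called genes held over the same fits was not counted.

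**Figure D2:**
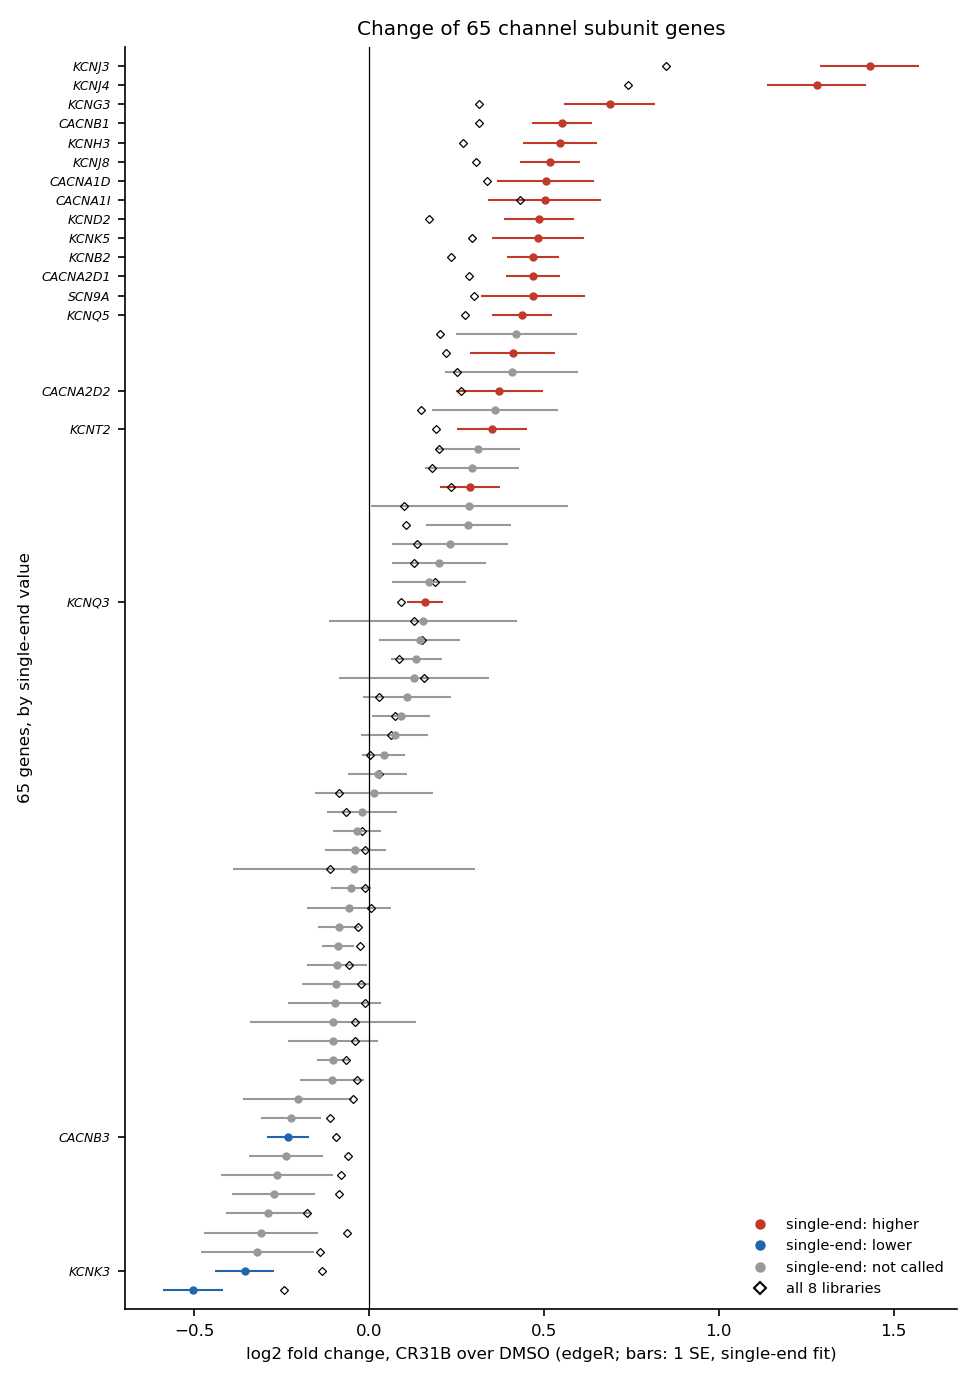
Log2 fold change of CR31B over DMSO for the 65 genes (edgeR), ordered by the single-end value: points and bars of 1 SE are the fit of 6 single-end libraries, coloured by call, and open diamonds the fit of 8 libraries; the called genes described in the text are named. KCNJ3 has the highest single-end value at 1.43, KCNK3 lies at -0.35 and CACNB3 at -0.23, and the 8-library values lie closer to 0 for the called genes.

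Values per library below are TMM-scaled CPM, given in the order of replicates 1 to 4, and gene positions are those of GENCODE release 29 on GRCh38. Sodium channel genes held 278, 296, 369 and 307 CPM in sum in the libraries labelled CR31B and 289, 257, 313 and 273 in those labelled DMSO. Of 7 genes 2 were called higher in the single-end libraries (background 23.8%), 0 lower (background 17.6%) and 5 not called. Most of the sum was SCN3B, whose protein binds the sodium channel pore from the outer face of the membrane. It had 170.5, 201.1, 265.7 and 214.1 CPM with CR31B and 187.3, 154.5, 211.4 and 183.2 with DMSO. Replicate 3 was the highest of both groups, and the groups overlapped. Its single-end log2 fold change was 0.31 ± 0.12 (SE), not called (adjusted p = 0.0603 by edgeR with Benjamini-Hochberg), and called higher under the replicate block (adjusted p = 0.000138). DESeq2, the fit without a filter on low counts and the GC and length offsets with the block also called it.

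SCN9A, the sodium channel pore of peripheral sensory and sympathetic neurons, was called higher, at 9.34 ± 0.950 CPM (SD, n = 3) against 6.74 ± 1.42 and a log2 fold change of 0.47 ± 0.15 (adjusted p = 0.0278 by edgeR with Benjamini-Hochberg). The call held under 6 of 10 other settings, was lost without CR31B replicate 3 or DMSO replicate 4, and with the GC and length offsets the value was 0.19 (adjusted p = 0.342). For SCN3A, SCN8A and SCN2A the log2 fold changes were 0.07, -0.05 and -0.04, none called. SCN8A was called lower with the GC and length offsets, and both SCN8A and SCN3A were called with the offsets and block. The sign of SCN3A in that last fit may differ from the 0.07 given here. SCN2A, the lowest of the 3, had 0.496 to 1.47 CPM over the 8 libraries, where a difference was not detectable at an SE of 0.35.

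Calcium channel genes summed to 508, 481, 484 and 510 CPM with CR31B and 511, 464, 439 and 449 with DMSO. Of 13 genes 5 were called higher (background 23.8%), 1 lower (background 17.6%) and 7 not called in the single-end libraries. The 2 most abundant pore genes were not among the calls. CACNA1B had 110.5, 90.8, 88.7 and 90.9 CPM with CR31B and 98.4, 95.3, 97.4 and 95.0 with DMSO. Its single-end groups did not overlap and lay close together, with a log2 fold change of -0.09 ± 0.045 (adjusted p = 0.144 by edgeR with Benjamini-Hochberg). It was called lower with upper quartile scaling, total counts, the filter of 1 CPM in every library and the GC and length offsets, with or without the block. CACNA1H had 102.5, 102.9, 87.0 and 108.0 CPM with CR31B and 99.6, 105.7, 89.7 and 97.7 with DMSO, fully overlapping, and a log2 fold change of 0.02 ± 0.085 whose sign turned under other scalings (-0.07 with upper quartile scaling).

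Calls among the calcium pores fell on less abundant genes. CACNA1D, the L-type pore that opens at less depolarised voltages, had 3.47, 3.57, 4.04 and 3.495 CPM with CR31B and 3.88, 2.96, 2.64 and 2.22 with DMSO. The single-end groups were apart, and DMSO replicate 1 lay among the CR31B libraries. Its log2 fold change was 0.51 ± 0.14 (adjusted p = 0.0145 by edgeR with Benjamini-Hochberg), and the GC and length offsets gave 0.34 and 0.0669. It was also lost without DMSO replicate 4. CACNA1I, the T-type pore of thalamic neurons, had 2.09, 2.42, 1.93 and 2.47 CPM with CR31B and 1.80, 1.42, 1.59 and 1.81 with DMSO. All 4 CR31B libraries were above all 4 DMSO libraries. CACNA1I had a log2 fold change of 0.43 over 8 libraries (adjusted p = 0.707) and of 0.50 ± 0.16 over the single-end ones (adjusted p = 0.0292, both edgeR with Benjamini-Hochberg), and the single-end call was lost without CR31B replicate 2 or 4 or DMSO replicate 2 or 3. CACNA1C, the main L-type pore of heart and brain, had 2.17 ± 0.422 against 1.62 ± 0.150 CPM (SD, n = 3), not called (adjusted p = 0.0756) and called higher under the replicate block (adjusted p = 0.0286, both edgeR with Benjamini-Hochberg).

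Both alpha2delta genes were called higher. Their proteins sit on the outer face of the membrane and carry calcium channels to the surface. CACNA2D1 (ENSG00000153956, chr7:81946444-82443798, minus strand), the binding partner of gabapentin, had 136.1, 130.8, 150.2 and 160.7 CPM with CR31B and 162.8, 113.6, 100.3 and 105.6 with DMSO. The 3 single-end CR31B libraries were above the 3 DMSO libraries, whereas the highest of all 8 was the library labelled DMSO replicate 1. The log2 fold change was 0.47 ± 0.077 (adjusted p = 0.000789 by edgeR with Benjamini-Hochberg), and 0.20 with the GC and length offsets, which kept the call. CACNA2D2 had 9.69 ± 1.55 against 7.497 ± 0.639 CPM (SD, n = 3), a log2 fold change of 0.37 ± 0.12 (adjusted p = 0.0350 by edgeR with Benjamini-Hochberg). That call was lost with upper quartile scaling, total counts and the offsets, and without CR31B replicate 2 or 4 or DMSO replicate 2 or 3.

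The cytoplasmic beta subunits, which hold calcium channel pores in the membrane and tune their opening, differed in direction. CACNB1 (ENSG00000067191, chr17:39173456-39197703, minus strand), the subunit of skeletal muscle that is also expressed in neurons, had 13.9, 19.3, 18.4 and 18.5 CPM with CR31B and 18.3, 13.9, 13.0 and 11.4 with DMSO. CACNB3 (ENSG00000167535, chr12:48813794-48828941, plus strand), a subunit frequent in neurons with N-type channels, had 39.4, 28.99, 29.8 and 28.1 with CR31B and 31.3, 35.9, 33.4 and 32.9 with DMSO. In both genes the single-end groups were apart and the 2 libraries of replicate 1 stood in the opposite order. The log2 fold changes were 0.55 ± 0.085 for CACNB1 (adjusted p = 0.000522) and -0.23 ± 0.060 for CACNB3 (adjusted p = 0.0103; edgeR, Benjamini-Hochberg). CACNB2 and CACNB4 had 0.11 and 0.29 and were not called, although CACNB4 was called higher under the replicate block (adjusted p = 0.0305 by edgeR with Benjamini-Hochberg). CACNG4, of the gamma family, had 66.9, 66.5, 63.5 and 60.1 CPM with CR31B and 60.9, 63.6, 69.3 and 69.2 with DMSO, overlapping. Its log2 fold change of -0.09 ± 0.058 was not called, but upper quartile scaling called it lower.

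Potassium channel genes summed to 1095, 1005, 992 and 1014 CPM with CR31B and 1089, 1006, 955 and 958 with DMSO. Of 45 genes 12 were called higher (background 23.8%) and 2 lower (background 17.6%) in the single-end libraries, and 31 were not called. Voltage-gated alpha subunits were 21 of these genes, with 7 higher and 1 lower, against the same background. The KCNQ genes make up the M-current, a slow potassium current near rest that holds back repetitive firing and that acetylcholine switches off.

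KCNQ5 (ENSG00000185760, chr6:72621792-73198851, plus strand), one of the M-channel genes, had 62.1, 48.0, 58.9 and 58.4 CPM with CR31B and 72.2, 44.1, 39.7 and 38.3 with DMSO. A small gap parted the single-end groups, between 48.0 and 44.1 CPM, both in replicate 2. KCNQ5 had a log2 fold change of 0.44 ± 0.086 (adjusted p = 0.00224 by edgeR with Benjamini-Hochberg). KCNQ3, another of them, had 65.4 ± 1.78 against 58.6 ± 2.22 CPM (SD, n = 3) and a call at 0.16 that did not hold under 6 of the 10 other settings, nor without CR31B replicate 2 or 4 or DMSO replicate 3 or 4.

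KCNB2 (ENSG00000182674, chr8:72537391-72938349, plus strand) had 73.4, 96.5, 86.2 and 87.7 CPM with CR31B and 102.2, 72.2, 59.95 and 63.4 with DMSO. The single-end groups were apart and the library labelled DMSO replicate 1 was the highest of all 8. Its log2 fold change was 0.47 ± 0.074 (adjusted p = 0.000621 by edgeR with Benjamini-Hochberg). Silent subunits form no channel alone but alter KCNB channels when they join them. Of these KCNG3 (ENSG00000171126, chr2:42442017-42494097, minus strand) had 3.21, 5.91, 5.87 and 7.06 CPM with CR31B and 5.89, 3.38, 3.94 and 4.38 with DMSO, apart in the single-end libraries, with a log2 fold change of 0.69 ± 0.13 (adjusted p = 0.00179 by edgeR with Benjamini-Hochberg).

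KCNG1, the more abundant silent subunit, varied by replicate number. It had 107.7, 92.2, 59.3 and 74.4 CPM with CR31B and 118.9, 79.5, 52.3 and 60.7 with DMSO. Within replicates 2 to 4 the CR31B library was the higher of each pair, and the order over the numbers was the same in both groups. Its log2 fold change of 0.23 ± 0.17 was not called (adjusted p = 0.294) and was called under the replicate block (adjusted p = 0.00114, both edgeR with Benjamini-Hochberg). It was also called without a filter on low counts and with the GC and length offsets and block. KCNS2 and KCNS3, silent as well, had -0.02 and -0.27 and were not called, but KCNS3 was called lower under the replicate block (adjusted p = 0.0441 by edgeR with Benjamini-Hochberg). KCNS3 was also called lower with upper quartile scaling and total counts.

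KCND2 (ENSG00000184408, chr7:120273668-120750331, plus strand), the pore of the fast A-type current of dendrites, had 4.66, 6.33, 7.27 and 6.88 CPM with CR31B and 8.05, 4.92, 4.71 and 5.02 with DMSO. The single-end DMSO libraries lay close together, from 4.71 to 5.02, and below the CR31B libraries. The log2 fold change was 0.49 ± 0.10 (adjusted p = 0.00312 by edgeR with Benjamini-Hochberg). In the KCNH family, relatives of the ether-a-go-go channel, KCNH3 (ENSG00000135519, chr12:49539157-49558308, plus strand) had 15.5, 19.9, 17.6 and 17.7 CPM with CR31B and 23.1, 14.7, 11.3 and 11.7 with DMSO, apart in the single-end libraries. It was the 1 called gene of the 7 (background 41.3% in either direction), with 0.55 ± 0.11 (adjusted p = 0.00221 by edgeR with Benjamini-Hochberg). Other settings called more of the family. KCNH8 was called lower with upper quartile scaling, total counts and the GC and length offsets, and without CR31B replicate 3. The offsets with the block called KCNH8 and KCNH1. KCNH7 was called when DMSO replicate 2 or both libraries of replicate 2 were left out. KCNH2, the cardiac repolarisation channel known as hERG, had 54.7 ± 4.28 against 56.1 ± 3.15 CPM (SD, n = 3) and -0.03 ± 0.068. KCNC1, of the fast-spiking family, had 69.9 ± 1.30 against 68.0 ± 5.22 CPM (SD, n = 3) and was not called.

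The beta and KChIP subunits of voltage-gated potassium channels, KCNAB2, KCNAB3 and KCNIP3, had means of 1.67 to 5.01 CPM. They gave 0 calls among 3 genes (background 41.3% in either direction). KCNIP3 had -0.32 and was called lower under the replicate block (adjusted p = 0.0431 by edgeR with Benjamini-Hochberg). KCNAB2, a cytoplasmic beta subunit related to aldo-keto reductases, had 5.72, 4.29, 4.35 and 4.48 CPM with CR31B and 5.15, 4.82, 6.18 and 5.003 with DMSO. Its single-end groups did not overlap, and its log2 fold change was -0.29 ± 0.12 (adjusted p = 0.0839, and 0.0395 under the replicate block, by edgeR with Benjamini-Hochberg). It was also called lower with upper quartile scaling, total counts, the filter of 1 CPM in every library and the GC and length offsets with the block. Of the 5 genes of the large-conductance family the 1 called (background 41.3% in either direction) was KCNT2, a sodium-activated potassium channel, higher. It had 32.9, 30.2, 38.5 and 38.7 CPM with CR31B and 40.3, 29.8, 28.9 and 25.4 with DMSO. Its single-end groups were just apart, at 30.2 against 29.8 CPM in replicate 2, and its log2 fold change of 0.35 ± 0.10 (adjusted p = 0.0165) became 0.11 (adjusted p = 0.350) with the GC and length offsets (edgeR, Benjamini-Hochberg). The call of KCNT2 was also lost without CR31B replicate 4 or DMSO replicate 4. KCNMA1, of the same family, was not called at -0.09 ± 0.085. It was called lower with the GC and length offsets, and it was called with the offsets and block. KCNN1, a small-conductance channel opened by calcium through calmodulin, had 23.2, 18.1, 19.9 and 18.8 CPM with CR31B and 20.5, 22.3, 21.1 and 17.6 with DMSO, overlapping, at -0.11 ± 0.091, not called.

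Inward rectifiers pass potassium more easily into the cell than out of it. Of 8 genes 3 were called higher (background 23.8%) and 0 lower (background 17.6%) in the single-end libraries. The 3 included the 2 largest changes among the 65 genes. KCNJ3 (ENSG00000162989, chr2:154698299-154858352, plus strand), a pore that G protein beta-gamma subunits open, had 2.61, 4.73, 5.25 and 5.22 CPM with CR31B and 5.17, 2.17, 1.57 and 1.91 with DMSO. The single-end groups were far apart, and in replicate 1 the library labelled CR31B lay near the DMSO libraries and the library labelled DMSO near the CR31B libraries. Its log2 fold change was 1.43 ± 0.14, a 2.698-fold higher level, (adjusted p = 2.73e-05 by edgeR with Benjamini-Hochberg). Its partners KCNJ6 and KCNJ9, also G protein-gated, had 0.15 ± 0.27 and -0.10 ± 0.24 and were not called.

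KCNJ4 (ENSG00000168135, chr22:38426327-38455199, minus strand), a strong rectifier of excitable cells, had 1.84, 3.62, 3.52 and 3.99 CPM with CR31B and 3.57, 1.52, 1.35 and 1.73 with DMSO. As in KCNJ3, the single-end groups did not meet, and replicate 1 stood in the opposite order. Its log2 fold change was 1.28 ± 0.14 (adjusted p = 5.75e-05 by edgeR with Benjamini-Hochberg), at raw counts of 89 to 204 per library. KCNJ12 and KCNJ14, of the same subfamily, had 0.09 and -0.26 and were not called. KCNJ8 (ENSG00000121361, chr12:21764955-21775581, minus strand), the pore of ATP-sensitive channels in smooth muscle and the most abundant inward rectifier, had 24.95, 25.3, 30.8 and 31.0 CPM with CR31B and 31.4, 19.4, 20.1 and 21.4 with DMSO, apart in the single-end libraries, and 0.52 ± 0.086 (adjusted p = 0.000815 by edgeR with Benjamini-Hochberg). KCNJ11, the pore of the pancreatic form, was not called at -0.20 ± 0.16. Exons of other genes on the opposite strand overlap 12.6% of the exonic bases of KCNJ4 and 10.8% of those of KCNJ8. The name of the deposited table holds the word reverse, which may stand for a strand setting but is not explained in the sources used here. The part of reads from those genes in these counts was not tested.

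The K2P family carries the leak current that sets the resting potential. KCNK2, its most abundant member, had 77.0, 74.9, 76.3 and 74.8 CPM with CR31B and 74.1, 80.2, 82.2 and 80.6 with DMSO. The 3 single-end libraries of each group lay close together, and the groups did not overlap. KCNK2 had a log2 fold change of -0.10 ± 0.045 (adjusted p = 0.0946, and 0.0487 under the replicate block, by edgeR with Benjamini-Hochberg). It was also called lower with upper quartile scaling, total counts and the filter of 1 CPM in every library. The GC and length offsets, with or without the block, called it lower as well. KCNK3 (ENSG00000171303, chr2:26692690-26733420, plus strand), closed by acid outside the cell, had 66.6, 44.2, 34.3 and 38.2 CPM with CR31B and 45.9, 51.4, 47.7 and 50.2 with DMSO. The single-end groups were apart, and the highest of all 8 was the library labelled CR31B replicate 1. It fell by 0.35 ± 0.085 on the log2 scale (adjusted p = 0.00686 by edgeR with Benjamini-Hochberg). KCNK5 (ENSG00000164626, chr6:39188973-39229450, minus strand), opened by alkaline conditions, had 12.5, 19.6, 22.5 and 21.2 CPM with CR31B and 15.3, 11.6, 17.1 and 16.6 with DMSO, apart in the single-end libraries, and 0.48 ± 0.13 (adjusted p = 0.0131 by edgeR with Benjamini-Hochberg). KCNK1, KCNK6 and KCNK12 had -0.06, 0.14 and 0.28 and were not called.

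**Figure D3:**
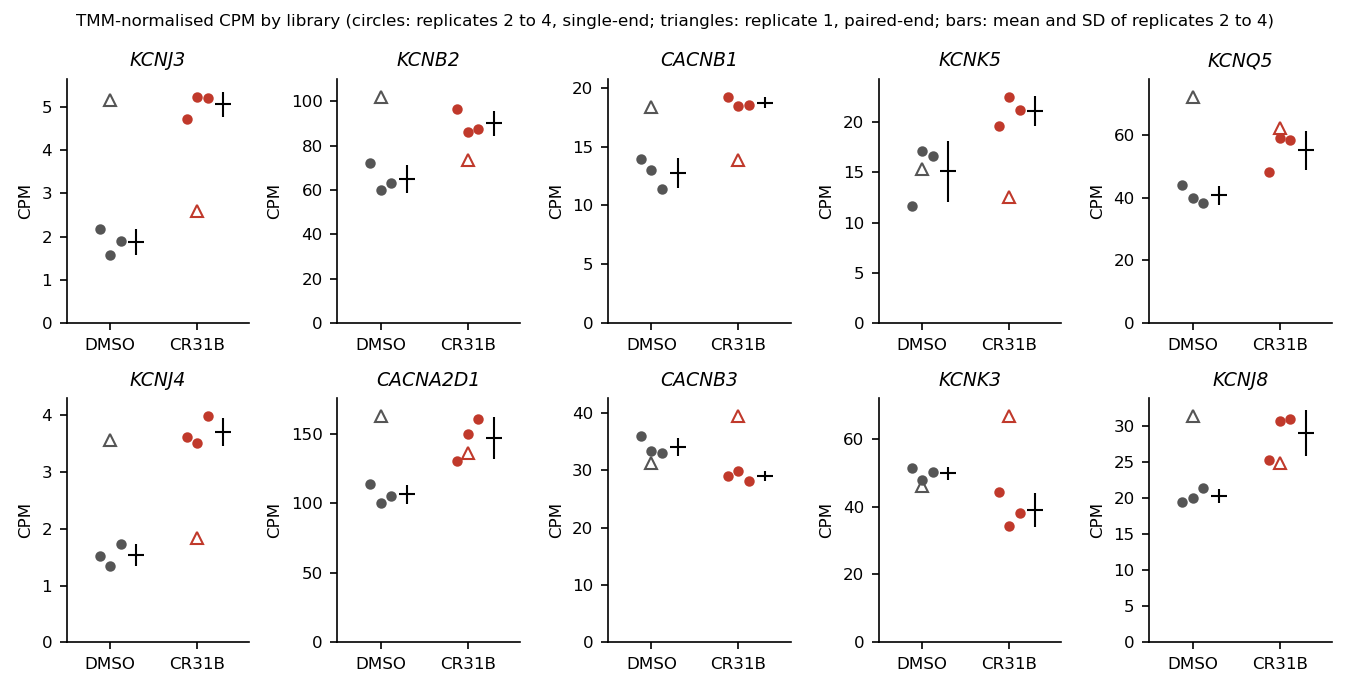
TMM-scaled CPM per library of 10 channel genes, with DMSO in grey and CR31B in red, circles for the single-end replicates 2 to 4, open triangles for the paired-end replicate 1, and the mean and SD of replicates 2 to 4 beside them; the axes start at 0. In KCNJ3 the single-end CR31B libraries lie between 4.73 and 5.25 CPM and those of DMSO between 1.57 and 2.17, with the triangles in the opposite order, and in CACNB3 and KCNK3 the CR31B circles lie below the DMSO circles.

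Ratios of 2 genes of a family within a library do not depend on how libraries are scaled. The pairs were chosen after their values were seen, so they are described without a test. CACNB1 over CACNB3, in counts per kb, was 0.355, 0.670, 0.623 and 0.666 in the CR31B libraries and 0.591, 0.391, 0.393 and 0.349 in the DMSO libraries. In the single-end libraries it averaged 0.653 ± 0.026 (SD, n = 3) with CR31B and 0.378 ± 0.025 with DMSO. CACNB3 was the more abundant of the pair in every library. KCNK5 over KCNK3 was 0.312, 0.733, 1.09 and 0.921 with CR31B and 0.551, 0.375, 0.593 and 0.549 with DMSO. In both ratios the single-end groups were apart and both libraries of replicate 1 stood in the opposite order.

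**Figure D4:**
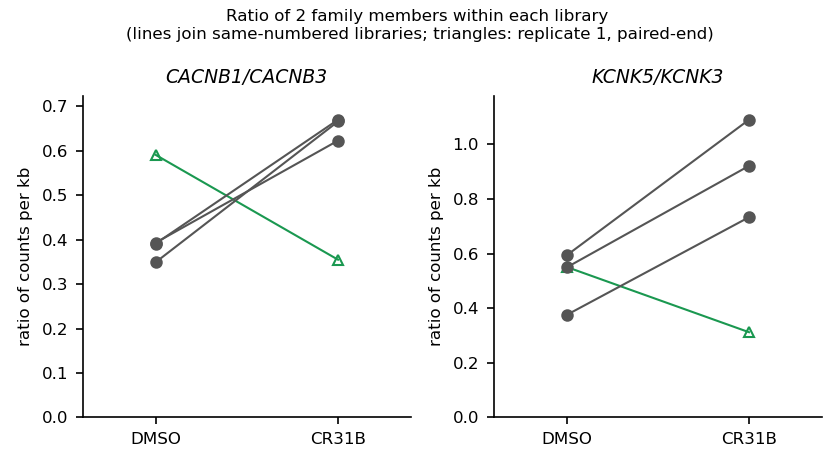
Ratio of counts per kb of 2 genes of a family within each library, with lines joining the DMSO and CR31B libraries of the same replicate number; grey circles are replicates 2 to 4 and green triangles replicate 1. Lines of replicates 2 to 4 go up in both ratios and the line of replicate 1 goes down, as for CACNB1 over CACNB3 from 0.591 to 0.355.

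The difference between the 2 libraries of replicate 1 was opposite in sign to the single-end difference in 20 of the 22 called genes (background 98.9%) and in 54 of 65 genes overall (background 84.4%). CACNA1I was among the 2 exceptions, with a log2 difference of 0.22 in replicate 1. For KCNJ3 it was -0.99, for KCNJ4 -0.95, for KCNG3 -0.87 and for KCND2 -0.79. The interaction of treatment with layout tests that difference itself, with a spread that comes from the single-end libraries. It was called in 21 of 65 genes (edgeR, Benjamini-Hochberg; background 42.5%), all 21 with opposite signs in the 2 layouts, and 16 of them were among the 22 single-end calls. Among the other 5 were KCNK12, CACNA1B, KCNH8 and KCNS3, with interaction values of -0.71, 0.26, 0.72 and 0.80. For CACNA1I the adjusted p of the interaction was 0.5204 by edgeR with Benjamini-Hochberg.

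**Figure D5:**
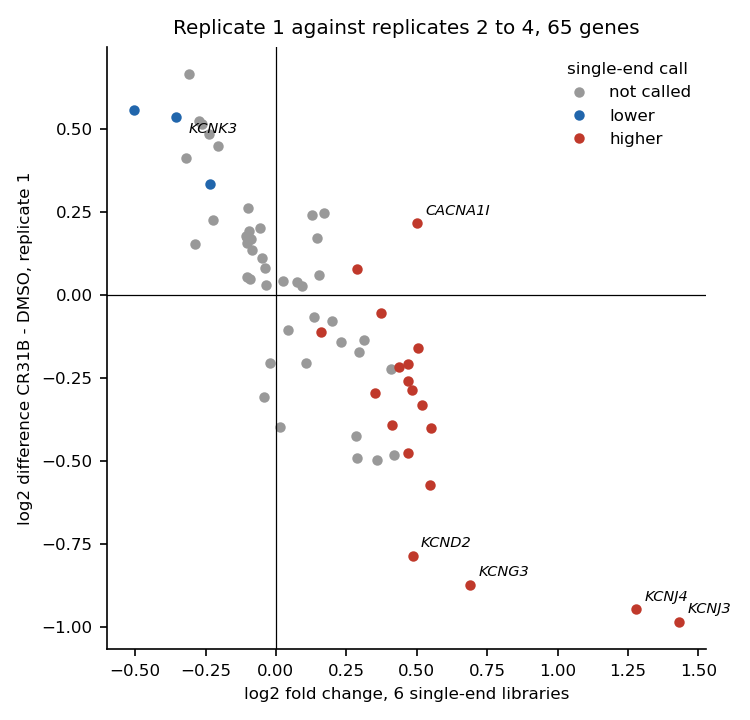
Log2 difference between the libraries labelled CR31B and DMSO of replicate 1 (vertical) against the log2 fold change of the 6 single-end libraries (horizontal) for the 65 genes, coloured by single-end call. Most points lie in the 2 quadrants of opposite sign, with KCNJ3 at 1.43 and -0.99 the farthest to the right, and CACNA1I is a called gene above 0 on both axes.

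Channel genes are long. The median span from first to last exon was 72470 bases for the 65 genes and 25530 for all genes. Across genes of the whole table the single-end log2 fold change had a Spearman rho of 0.22 with span and 0.24 with exon length, and across the 65 genes 0.01 and -0.02. With GC content it was -0.15 and -0.18. These are descriptions across genes, which share libraries and are not independent. Of 21 genes below 5 CPM 6 were called in the single-end libraries, of 21 genes from 5 to 20 CPM 7, and of 23 genes above that 9. The background over all levels was 41.3%.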

How the data were processed

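Per the labels, column-purified total RNA went into polyadenylated RNA libraries read on an Illumina NextSeq for 75 cycles. The labels also name a small RNA library kit. The authors deposited raw counts per Ensembl gene, not normalised. The submitters' processing notes name GRCh38, FastQC 0.11.7, STAR 2.7.2b, edgeR 3.36.0 and limma 3.50.3, without their roles; the counting tool and annotation are not given in the sources used here, nor is the strand setting beyond the word reverse in the table's name. Of 58787 identifiers 58515 matched GENCODE release 29. Whether these counts include PCR duplicates was not examined, and depth gives counting error only.

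The test of all genes was that of edgeR 4.0.16 under R 4.3.3 (glmQLFit, glmQLFTest, two-sided, filterByExpr, TMM factors of 0.955 to 1.04), and p-values were adjusted by Benjamini-Hochberg over all tested genes, with 0.05 as threshold. All 8 libraries were fitted under their labels with layout as a covariate, the 6 single-end libraries alone, and the interaction of treatment with layout in all 8. All 65 genes passed the filter in both fits. The coefficient of biological variation that edgeR estimated was 16.3% over 8 libraries and 7.46% over 6. Differences within a replicate used log2 CPM at a prior count of 1.

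Same-numbered libraries deviated together, if weakly, in the single-end libraries (correlations of 0.208, 0.388 and 0.157 for replicates 2, 3 and 4). They did not in all 8 (-0.527, -0.078, 0.159 and -0.108 for replicates 1 to 4). With 3 single-end libraries per group these values do not settle whether replicate number pairs the libraries. The main single-end fit had no term for it and gave 22 calls, and the fit with it as a block gave 32. Scripts were tested on simulated counts. The smallest chi-square per gene between 2 libraries was 7.16, and each was counted as its own replicate.

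The genes, classes and lists were chosen with earlier results of these data known. Named were all genes called in 8 libraries, up to 10 single-end calls per direction of 1 sign in replicates 2 to 4, the gene with the highest CPM per kb of exon in each class, and up to 2 called genes per direction of each further list. Other genes were named after their values were seen. Some genes that the rule names are not reported here; counts and sums include them. Alternatives were upper quartile, RLE and total count scaling, 2 filters, DESeq2 1.42.0, limma 3.58.1 voom, a block on replicate number and leaving out libraries. Loess offsets for GC content and length of a gene's longest transcript (known for 99.9% of genes) were a further alternative. Promoter windows came from RefSeq.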

Additional observations from a re-analysis of the deposited data

Results flagged for a closer look

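In groups of 4 libraries, a library was set apart where its gap to the nearest other, divided by the range of the group, passed Dixon's 95% critical value. Of 48 groups (24 named channel genes, 2 treatments) 8 passed. Chance gives about 1 in 20 in groups not chosen by their values, but most of these genes were named because replicates 2 to 4 had the same sign, so that rate is no yardstick here. In 7 of the 8 the distant library was that of replicate 1. With DMSO it was the library of replicate 1 for KCND2 (0.906), KCNJ8 (0.837) and KCNJ3 (0.834). With CR31B it was the library of replicate 1 for CACNA1B (0.896), KCNAB2 (0.866), CACNB3 (0.846) and CACNB1 (0.844). The remaining one was CR31B replicate 3 for CACNA1D (0.838). The groups were drawn from the same 8 libraries, so they do not count separately.

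The difference between CR31B and DMSO in replicate 1, the only paired-end pair, differed from that of the single-end libraries in 21 of 65 genes (interaction in edgeR, Benjamini-Hochberg; background 42.5%). With 1 paired-end library per treatment the test assumes that these libraries vary like the single-end ones, and it compares this pair, not layouts in general. The largest was KCNJ3, with an interaction of -2.42 on the log2 scale and an adjusted p of 7.60e-05, followed by KCNJ4 with -2.23 and an adjusted p of 0.000144 (edgeR, Benjamini-Hochberg).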

How the results depend on the processing

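As labelled, 0 genes were called in all 8 libraries with each other scaling, filter, tool and model, and 1 to 4 genes had an unadjusted p under 0.05. Leaving out libraries in turn gave 0 to 22 genes, 0 to 19 higher and 0 to 3 lower. The 22 (19 and 3) came without CR31B replicate 1 (6920 over all genes) and without DMSO replicate 1 (6906), as with the single-end libraries alone (6901). In the single-end libraries the 19 higher calls became 12 with upper quartile scaling (background 18%), total counts (background 19.1%) and GC and length offsets (background 19.3%). The 3 lower calls became 10, 9 and 9 under these (background 27%, 25.1% and 19.5%). They became 7 with the filter of 1 CPM in every library (background 25.8%) and 8 with replicate number as a block (background 23.1%). With offsets and block they became 14 (background 26.5%), and 34 genes were called there (8444 over all genes). The block kept all 22 calls and added 10. Without both libraries of replicate 4, chosen after seeing the data, 10 were called (9 higher, background 15.3%, and 1 lower, background 8.08%). Leaving out libraries or pairs in turn gave 10 to 24 genes, 9 to 21 higher and 1 to 4 lower (3981 to 6727 called over all genes). A called gene, KCNQ3, turned sign in the single-end libraries, from 0.16 to -0.02 with the offsets, with or without the block. Of the genes that the naming rule chose, CACNA1H, CACNG4 and KCNN1, all near 0, turned sign. In 8 libraries CACNA1H was -0.014 with upper quartile scaling, -0.0074 with total counts, -0.059 with offsets and -0.059 with offsets and block, and -0.016 to 0.090 with a library left out. Its single-end values under the same settings were -0.073, -0.056, -0.14 and -0.14 (adjusted p = 0.0159 in the last, edgeR), with -0.0074 under the CPM filter and -0.040 to 0.11 with a library or pair left out. Leaving out a library of the 8 gave -0.087 to 0.0046 for CACNG4, which was 0.00037 without DMSO replicate 4, and -0.11 to 0.032 for KCNN1, which was 0.0018 without CR31B replicate 2. The cause of these shifts was not tested. SCN2A, KCNMB3 and KCNJ9 had 26 to 92, 43 to 109 and 38 to 104 raw counts per library. Their single-end SE was 0.24 to 0.35. KCNJ6 had an SE of 0.27 at 203 to 833 counts, and CACNA1I one of 0.16 at 75 to 127. The part of low counts in these SEs was not tested.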

Other observations

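Genes that work beside the channels were read from 4 lists. In all 8 libraries each gene named here had an adjusted p of 0.707 or more by edgeR with Benjamini-Hochberg. In the single-end libraries the list of channel partners had 16 of 36 tested genes called higher (background 23.8%) and 2 lower (background 17.6%). Its median log2 fold change was 0.18. CNTNAP1 had 27.6, 50.1, 62.9 and 52.4 CPM with CR31B in replicates 1 to 4 and 59.0, 23.6, 24.6 and 24.1 with DMSO. The single-end groups were far apart and replicate 1 stood in the opposite order. Its log2 fold change was 1.20 ± 0.083 (adjusted p = 3.19e-06 by edgeR with Benjamini-Hochberg). LRRC26, an auxiliary subunit of BK channels, had 1.32 at under 0.4 CPM. CALM3, a calmodulin gene, fell by 0.37 and SUMF1, a sulfatase activator, by 0.27.

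Partners of single channels, chosen after their values were seen, are set beside them as values. ABCC9, the sulfonylurea receptor that assembles with the product of KCNJ8, had 2.57, 2.76 and 2.53 CPM in the single-end CR31B libraries and 1.504, 1.53 and 1.91 in those of DMSO, called higher at 0.68 ± 0.15 on the log2 scale (adjusted p = 0.00384 by edgeR with Benjamini-Hochberg). ABCC8, which assembles with the product of KCNJ11, had -0.36 ± 0.14 and was not called (adjusted p = 0.0604 by edgeR with Benjamini-Hochberg). DPP6, an auxiliary subunit of KCND channels, had 0.61 ± 0.075, and CACHD1, a protein related to alpha2delta subunits, 0.64 ± 0.066, both called. Other genes of the same list of partners were not called, AMIGO1 with 0.04 ± 0.088 and STAC with -0.04 ± 0.084 among them. Of its 36 tested genes 16 were called higher (background 23.8%) and 2 lower (background 17.6%). Whether partners change along with their channels was not tested.

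REST silences neuronal genes, many channel genes among them, outside the nervous system. REST was called higher in the single-end libraries with a log2 fold change of 0.60 ± 0.086, at 62.7, 75.3 and 71.1 CPM against 40.8, 47.6 and 49.7. Of 10 genes of REST and its corepressors 5 were called higher, led by RCOR2 (0.91) and SIN3A (0.77), and 1 was called lower. Of 23 tested voltage-sensing, pacemaker and leak channel genes outside the 65, 5 were called higher, led by NALF1, an auxiliary subunit of the sodium leak channel (1.04), and 2 lower, CLCN6 (-0.36) and TPCN1 (-0.25). Of 24 pumps and exchangers 6 were called higher, led by the sodium-calcium exchanger SLC8A1 (0.65) and the calcium pump ATP2B1 (0.63), and 4 lower, led by the potassium-chloride exporter SLC12A7 (-0.73) and FXYD6 (-0.58). The background was 23.8% higher and 17.6% lower. Each gene named here had the opposite sign in replicate 1.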
